A study of Homo sapiens with 6 samples.

Results

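The 43 genes described here encode the enzymes and transporters of glycolysis and of lactate handling, the oxygen-sensing machinery, and genes induced when oxygen is low. They were taken by symbol from a list that was chosen with earlier results of these data known. All 43 were found among the 58825 gene identifiers of the table. Of the 43, 41 had enough reads to be among the 16208 genes tested. RNA was sequenced from SKOV3 cells, a human epithelial ovarian cancer line, that had received either a control siRNA without a target gene (NC, n = 3 libraries) or an siRNA against EIF5A2 (si-EIF5A2, n = 3 libraries) by transient transfection 48 h earlier. EIF5A2 is a translation factor related to the general elongation factor eIF5A. The data come from 1 cell line, no reduced oxygen is described for these cultures, and the sources do not say whether the libraries of a group came from separate cultures, so the p-values measure the spread between these libraries.

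In glycolysis, glucose enters the cell through carrier proteins, is trapped by phosphorylation, is cleaved into triose phosphates and is oxidised to pyruvate with a net gain of ATP. Pyruvate is then either reduced to lactate, which leaves the cell with a proton, or passed to the mitochondrion, a branch that pyruvate dehydrogenase kinases restrain. When oxygen falls, the prolyl hydroxylases that mark the HIF alpha subunits for destruction by the VHL ligase lose activity, and the stabilised alpha subunits pair with ARNT and activate many glycolytic genes as well as genes for vessel growth, pH control and collagen modification. Tumour cells commonly run this programme at high levels even in ample oxygen.

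EIF5A2 itself was measured at 29.1 ± 1.15 CPM (SD, n = 3; CPM is a library's counts scaled to a fixed total) in NC and at 3.69 ± 0.817 CPM in si-EIF5A2, 12.7% of the NC level. Library totals ran from 46900204 to 74142267 estimated counts, and 3 sequenced fragments, the level under which a gene was taken as not detected, corresponded to 0.151 to 0.234 CPM. Correlations of log expression were 0.964 to 0.974 between libraries of a group and 0.929 to 0.938 between groups. The keratin genes KRT8 and KRT18, ERBB2 and PAX8 were present in all 6 libraries, whereas KRT19, EPCAM and CDH1 lay between 0.172 and 3.85 CPM and MUC1 was at or under the floor throughout. The summed level of the 8 epithelial markers was 1134 to 1267 CPM in NC and 755 to 950 CPM in si-EIF5A2, and the 11 markers of blood, endothelial and fibroblast cells summed to 2.81 to 3.78 CPM in NC and 0.782 to 4.27 CPM in si-EIF5A2, with PTPRC and CD3E at 0. The part of these marker levels in the results was not tested. In bulk RNA, fewer cells of a kind and less RNA per cell cannot be told apart.

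The glycolytic and hypoxia-induced genes did not move as a block after EIF5A2 knockdown. A gene was called when edgeR's quasi-likelihood test gave it a Benjamini-Hochberg adjusted p below 0.05 and its fold change exceeded 1.5. On this rule, 3 of the 41 tested members fell (SLC2A1, PGAM1 and LOX) and 5 rose (SLC2A3, PFKL, ARNT, P4HA1 and P4HA2). The remaining 33 were not called. The 3 lower members make up 7.32% of those tested, against 13.6% of all genes tested, and the 5 higher members 12.2%, against 11.1%, so neither share lay far above the background. The split between lower and higher members was 6 and 5 with upper-quartile scaling, 2 and 5 with scaling by library size only, and 1 and 7 when a trend on GC content and exon length was removed, where only LOX stayed lower and EPAS1 and ADM joined the higher members. CPM ranges of the groups did not overlap in 25 of the 41 members, 12 with si-EIF5A2 below NC and 13 above, beside 51.2% of all genes tested.

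**Figure D1:**
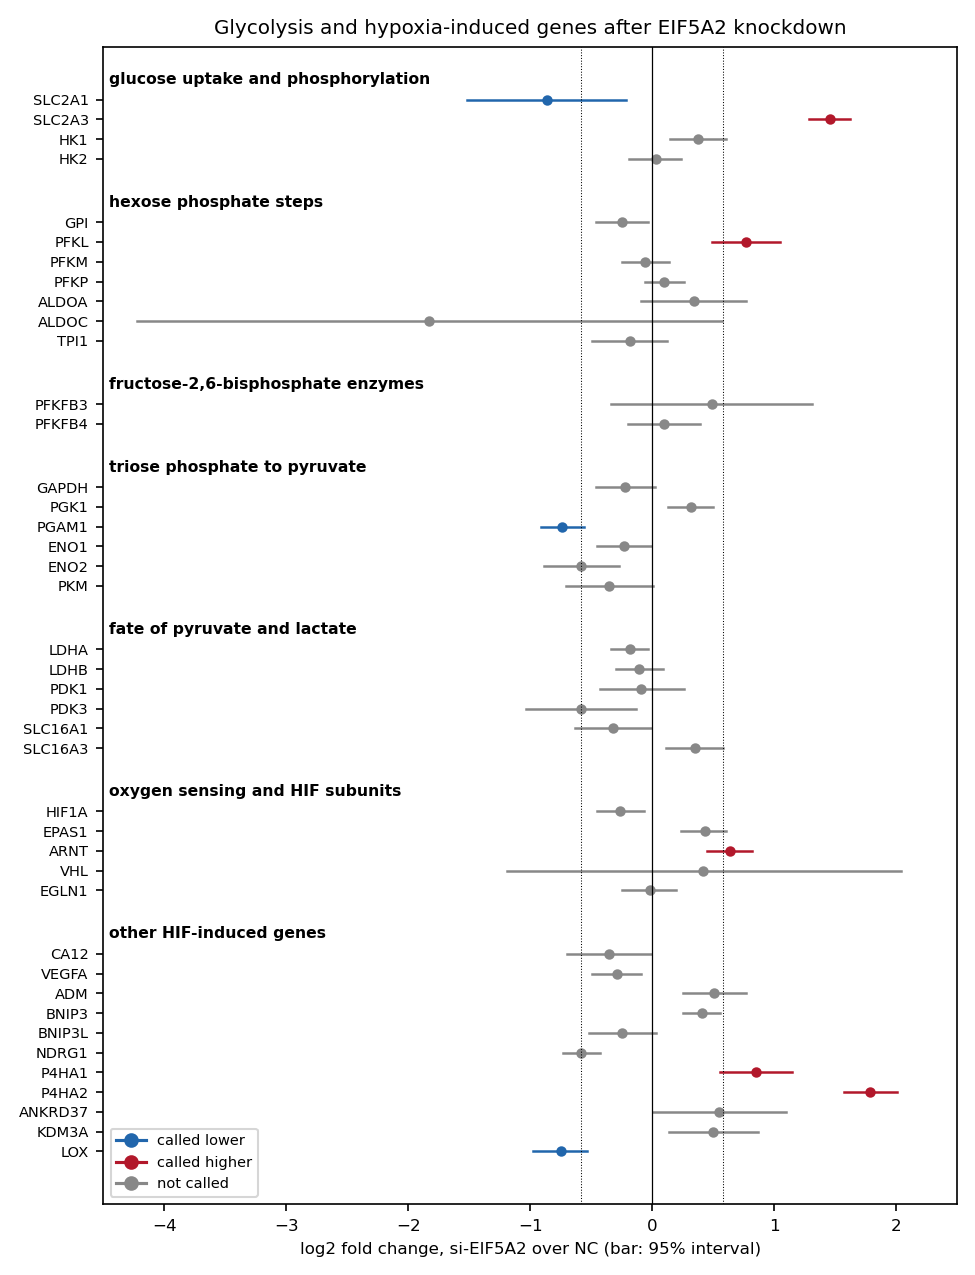
Log2 fold change of each of the 41 tested members in si-EIF5A2 over NC, grouped by role. Points are estimates of the edgeR fit over 3 NC and 3 si-EIF5A2 libraries, bars are 95% intervals, dotted lines mark the 1.5-fold limit, blue marks the 3 members called lower, red the 5 called higher and grey the 33 not called. Called members stand on both sides of 0 and in 5 of the 7 role groups.

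The median log2 fold change of the members was -0.06 (quartiles -0.29 and 0.42), beside -0.01 (quartiles -0.50 and 0.41) for all genes tested. That median went to -0.15 without si-EIF5A2 replicate 1 and to 0.05 with the GC and length trend removed. For the 25 glycolysis and lactate members the median was -0.11 (quartiles -0.32 and 0.32, 15 estimates negative and 10 positive). Of these, 2 were lower and 2 higher, both shares under those of all genes tested (13.6% lower and 11.1% higher). For the 16 tested members of oxygen sensing and HIF response the median was 0.41 (quartiles -0.27 and 0.52). Their estimates went both ways, 7 negative and 9 positive. Of these 16, 1 was lower (6.25%, beside 13.6%) and 3 were higher (18.8%, beside 11.1%). Whether these shares differ from the background was not tested. Together the members held 2.73 to 3.22% of the scaled library total used for CPM in each NC library. In the si-EIF5A2 libraries they held 2.54 to 2.79%, so the groups overlapped. GAPDH accounted for most of this, with 18936 CPM in NC replicate 1 as the highest value of any member.

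Glucose enters through SLC2A1 and SLC2A3, 2 facilitative carriers, and these moved in opposite directions. SLC2A1 (chromosome 1, GRCh38, 42925375 to 42959176, minus strand) was at 277, 259 and 234 CPM in NC replicates 1, 2 and 3 and at 168, 86.7 and 169 CPM in the si-EIF5A2 replicates. All 3 si-EIF5A2 libraries lay below all NC libraries, and replicate 2 lay well below the other two. The log2 fold change was -0.86 (SE 0.27), with an edgeR adjusted p of 0.0497, just under the threshold. Over 16 other fits the adjusted p ran from 7.44e-04 to 0.143, and the call held in 6 of them. It was lost without any of the 3 NC libraries, without si-EIF5A2 replicate 1 (log2 fold change -1.02) and without replicate 3 (-1.02), and it was kept without replicate 2 (-0.61). SLC2A1 shares exon sequence with AC099795.1 on its own strand and with SLC2A1-AS1 on the opposite strand, and the sources used here do not say whether strand was used in counting.

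SLC2A3, the carrier with the higher affinity for glucose that is best known from neurons, was at 64.9, 60.3 and 65.4 CPM in NC and at 177, 167 and 179 CPM in si-EIF5A2. The groups were far apart and each was tight. It rose 2.74-fold, with a log2 fold change of 1.46 (SE 0.07, edgeR adjusted p = 8.31e-06), and kept its call in all 16 other fits. Per kilobase of exons, SLC2A1 made up 84.8%, 84.9% and 82.4% of the pair across the NC replicates and 55.3%, 40.4% and 55.2% across those of si-EIF5A2. The share of SLC2A1 was therefore 84.0 ± 1.41% in NC and 50.3 ± 8.57% in si-EIF5A2 (SD, n = 3). The sum of both carriers was 64.7 ± 4.46 and 58.2 ± 11.0 CPM per kilobase, 90.0% of the NC level, and these sums overlapped between groups.

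The hexokinases phosphorylate glucose and so hold it in the cell. HK1, the widely expressed form bound to mitochondria, was at 286, 299 and 296 CPM in NC and at 348, 359 and 442 CPM in si-EIF5A2. The si-EIF5A2 libraries were above NC throughout, but the estimate, 0.38 (95% interval 0.15 to 0.61, edgeR adjusted p = 0.0179), stayed under the fold limit. HK2, the form that HIF induces in many tumours, was at 36.0, 36.4 and 37.2 CPM in NC and at 39.0, 33.7 and 38.9 CPM in si-EIF5A2. These values overlapped, with a log2 difference of 0.03 (95% interval -0.19 to 0.24). HK1 made up 88.6 ± 0.205% of the pair per kilobase in NC and 90.8 ± 1.06% in si-EIF5A2.

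**Figure D2:**
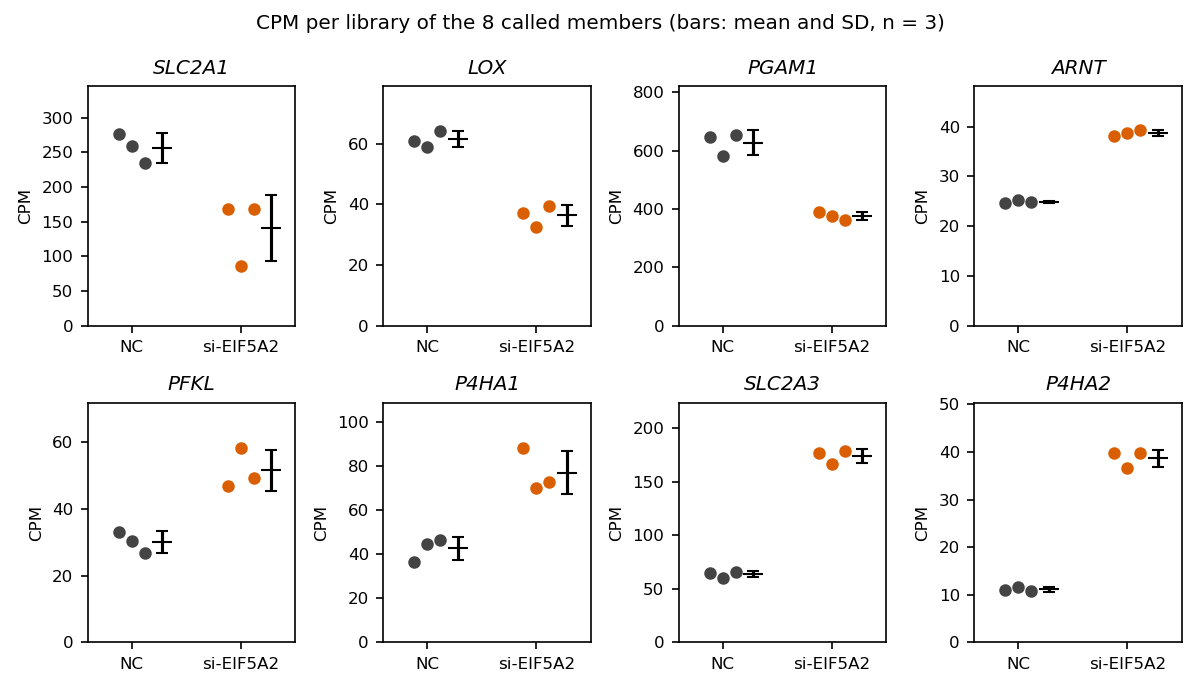
CPM per library of the 8 called members, ordered from the lowest to the highest log2 fold change. Dots are the 3 NC (grey) and 3 si-EIF5A2 (orange) libraries, the cross-bar beside them is the mean with its SD, and each vertical axis is linear and starts at 0. In every panel the groups are apart, and the SLC2A1 panel has the widest spread within si-EIF5A2, from 86.7 to 169 CPM.

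Phosphofructokinase commits sugar to glycolysis and exists as 3 isoforms. PFKL, the liver-type subunit, was at 33.1, 30.4 and 26.7 CPM in NC and at 46.9, 58.2 and 49.1 CPM in si-EIF5A2. Every si-EIF5A2 library lay above every NC library. PFKL rose by 0.77 on the log2 scale (SE 0.12, edgeR adjusted p = 0.00169) and was called in all 16 other fits. PFKP, the platelet-type subunit, supplied most of the enzyme's transcripts, with 78.7 ± 0.850% of the family per kilobase in NC and 78.1 ± 1.12% in si-EIF5A2. It was at 325, 308 and 307 CPM in NC and at 320, 354 and 333 CPM in si-EIF5A2. PFKM, the muscle-type subunit, was at 104 ± 5.18 and 99.9 ± 7.19 CPM. The 95% intervals of PFKP (-0.06 to 0.26) and PFKM (-0.25 to 0.14) lay within 1.5-fold either way. The share of PFKL in the family was 4.08 ± 0.371% in NC and 6.47 ± 0.439% in si-EIF5A2, and the summed phosphofructokinase level was 108% of NC.

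The other hexose steps gave no calls. GPI, the isomerase that turns glucose phosphate into fructose phosphate, was at 401, 375 and 343 CPM in NC and at 290, 346 and 308 CPM in si-EIF5A2 (log2 fold change -0.25, edgeR adjusted p = 0.0736). ALDOA, the main aldolase, was at 962, 690 and 635 CPM in NC and at 817, 1102 and 975 CPM in si-EIF5A2, overlapping groups with a wide interval (-0.09 to 0.77). ALDOC, the brain-type aldolase, was barely detected, with 0.370, 0.381 and 0.340 CPM in NC and 0, 0.0766 and 0.229 CPM in si-EIF5A2. The si-EIF5A2 values of ALDOC were each within the 3-fragment floor, and no fold is read from them. TPI1, which interconverts the triose phosphates, was at 1195 ± 207 and 1053 ± 102 CPM and overlapped.

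PFKFB3 and PFKFB4 make and break fructose bisphosphate of the regulatory kind, the strongest activator of phosphofructokinase. PFKFB3 was at 17.6, 24.4 and 20.6 CPM in NC and at 20.2, 22.4 and 45.3 CPM in si-EIF5A2. Only si-EIF5A2 replicate 3 lay outside the NC range, and the interval ran from -0.34 to 1.31. PFKFB4 was at 8.90 ± 0.557 and 9.52 ± 0.692 CPM, with an interval of -0.20 to 0.39.

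Between triose phosphate and pyruvate, PGAM1 was the only member called. PGAM1, phosphoglycerate mutase, which moves the phosphate of phosphoglycerate from one carbon to the next (chromosome 10, 97426160 to 97433441, plus strand), was at 648, 580 and 655 CPM in NC and at 391, 375 and 363 CPM in si-EIF5A2. Every si-EIF5A2 library lay below every NC library. The si-EIF5A2 mean was 60.0% of the NC level, a log2 fold change of -0.74 (SE 0.08, edgeR adjusted p = 1.99e-04). The estimate was -0.55, under the fold limit, once the GC and length trend was removed, and PGAM1 was called in the other 15 fits. The 13 processed copies annotated for PGAM1 held 0.0875 to 0.513% of its counts, so reads placed on them were few beside the difference. Of the 13 steps from uptake to lactate export, phosphoglycerate mutase had the lowest level relative to NC.

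The enzymes on either side of PGAM1 did not share its size of change. PGK1, which makes the initial ATP of the pathway, was at 642, 688 and 679 CPM in NC and at 802, 914 and 787 CPM in si-EIF5A2. These values were above NC in every library, with a log2 fold change of 0.32 (SE 0.08, edgeR adjusted p = 0.0153) that stayed under the fold limit. ENO1, the main enolase, was at 3206, 3698 and 3404 CPM in NC and at 2683, 3296 and 2813 CPM in si-EIF5A2, overlapping groups at -0.23 (95% interval -0.45 to -0.01). ENO2, the neuronal enolase and a known HIF target, was at 98.0, 99.2 and 98.7 CPM in NC and at 68.6, 52.6 and 76.7 CPM in si-EIF5A2. All si-EIF5A2 values of ENO2 were below NC, yet its log2 fold change of -0.58 (edgeR adjusted p = 0.0101) sat at the fold limit of 0.585, and it was called lower in 9 of the 16 other fits.

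GAPDH, which oxidises the triose phosphate and is widely used as a reference gene, was at 18936, 14386 and 16527 CPM in NC and at 13847, 15208 and 13733 CPM in si-EIF5A2. The groups overlapped, at -0.22 (95% interval -0.46 to 0.02), and the sign turned to 0.03 with the GC and length trend removed. PKM, pyruvate kinase, was at 2323, 1740 and 1608 CPM in NC and at 1296, 1515 and 1637 CPM in si-EIF5A2, also overlapping (interval -0.71 to 0.01). PKM is spliced into alternative forms that gene counts cannot separate.

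**Figure D3:**
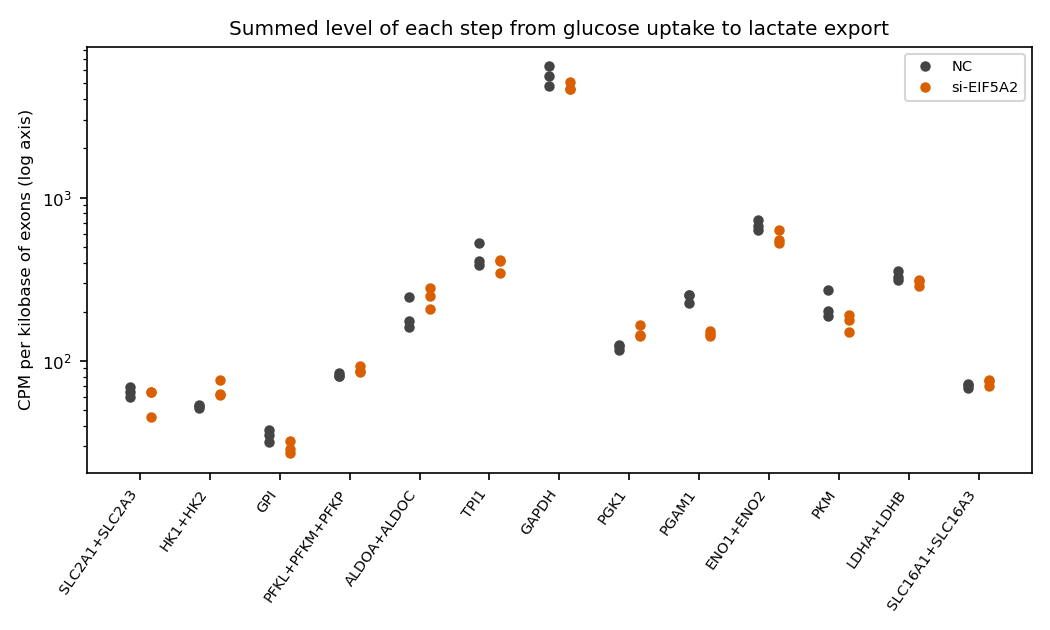
Summed level of each of 13 steps from glucose uptake to lactate export, in CPM per kilobase of exons on a log axis. Each dot is 1 library, grey for NC and orange for si-EIF5A2 (n = 3 each), and steps with several genes are sums over them. Groups overlap at 8 of the 13 steps, while CPM ranges do not overlap in 51.2% of all genes tested. The si-EIF5A2 means run from 60.0% of NC at PGAM1 to 127% at the hexokinases.

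Seen by step rather than by gene, 8 of 13 summed levels overlapped between groups. The sums were apart for the hexokinases (127% of NC), phosphofructokinases (108%), PGK1 (125%), PGAM1 (60.0%) and lactate dehydrogenases (90.9%). Of all genes tested, 51.2% had CPM ranges that did not overlap between groups, so steps that are apart are not unusual. Levels per kilobase differed far more between steps than between groups, from 34.9 ± 2.74 CPM per kilobase for GPI to 5574 ± 764 for GAPDH in NC.

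Lactate dehydrogenase and the lactate carriers showed small differences. LDHA, the subunit favouring lactate formation and a classic HIF target, was at 850, 848 and 875 CPM in NC and at 769, 785 and 712 CPM in si-EIF5A2. The groups were apart, but the difference of -0.18 (95% interval -0.34 to -0.03) was under the fold limit and the edgeR adjusted p was 0.0652. LDHB was at 580 ± 52.6 and 539 ± 23.0 CPM, and the share of LDHA in the pair per kilobase was 41.6 ± 1.81% in NC and 40.2 ± 0.703% in si-EIF5A2.

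SLC16A1 and SLC16A3 carry lactate and protons across the membrane, the latter being the hypoxia-inducible exporter. SLC16A1 was at 161, 164 and 189 CPM in NC and at 165, 117 and 130 CPM in si-EIF5A2, and these values overlapped. SLC16A3 was at 373, 335 and 320 CPM in NC and at 400, 494 and 415 CPM in si-EIF5A2, above NC throughout, with a log2 fold change of 0.35 (SE 0.10, edgeR adjusted p = 0.0292) under the fold limit. The share of SLC16A1 in the pair per kilobase was 45.8 ± 3.91% in NC and 34.8 ± 6.26% in si-EIF5A2, without overlap.

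PDK1 and PDK3, kinases that switch off pyruvate dehydrogenase, were low. PDK1 was at 10.4 ± 0.663 and 9.75 ± 1.48 CPM and overlapped. PDK3 was at 5.11, 3.63 and 4.10 CPM in NC and at 2.78, 2.89 and 2.92 CPM in si-EIF5A2. All 3 si-EIF5A2 libraries lay below NC for PDK3, but its edgeR adjusted p of 0.0502 missed the threshold and its log2 fold change of -0.58 sat at the fold limit. It was called lower in 4 of the 16 other fits.

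Shares within a family were compared for 14 isoforms in 12 families, and 8 did not overlap between groups. Among all genes tested, the CPM ranges of the groups did not overlap in 51.2%. With 3 against 3 libraries the exact 2-sided permutation test cannot go below p = 0.1, and each of the 8 had that p, or 0.175 adjusted over the 14 shares, so none could pass the threshold. The gaps ranged from -33.7 percentage points for SLC2A1 to 8.10 for PDK1. Leaving out any library kept the SLC2A1 gap between -36.2 and -28.8 points. The shares depend on the gene length used: with no length, LDHA made up 59.7% of its pair in NC and PDK1 70.9%, against 41.6% and 44.8% with exon length.

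The oxygen-sensing genes other than EGLN3 were well detected. HIF1A, the oxygen-regulated alpha subunit found in most cells, was at 100, 99.6 and 105 CPM in NC and at 89.9, 77.2 and 87.0 CPM in si-EIF5A2. All si-EIF5A2 values were below NC, at -0.26 (95% interval -0.45 to -0.07, edgeR adjusted p = 0.0388), within 1.5-fold. EPAS1, which encodes the alternative alpha subunit HIF-2 alpha, was at 47.8, 45.8 and 45.2 CPM in NC and at 65.5, 59.0 and 61.9 CPM in si-EIF5A2. These were above NC throughout, at 0.43 (SE 0.08, edgeR adjusted p = 0.00412), again under the fold limit. Of the alpha subunits per kilobase, HIF1A thus made up 74.8%, 75.5% and 76.7% in NC and 66.0%, 65.0% and 66.6% in si-EIF5A2.

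ARNT, the constitutive partner of both alpha subunits (chromosome 1, 150809705 to 150876768, minus strand), was at 24.7, 25.2 and 24.8 CPM in NC and at 38.2, 38.7 and 39.4 CPM in si-EIF5A2. The groups were far apart beside their SDs of 0.218 and 0.605 CPM. ARNT rose 1.56-fold, by 0.64 on the log2 scale (SE 0.08, edgeR adjusted p = 5.27e-04), and was called in all 16 other fits. EGLN1, the main prolyl hydroxylase that senses oxygen, was at 33.8 ± 2.58 and 33.3 ± 2.16 CPM, with an interval of -0.25 to 0.20. EGLN3, a hydroxylase that hypoxia strongly induces in many cells, was at 0.425, 0.494 and 0 CPM in NC and at 0.0782, 0.153 and 0.0417 CPM in si-EIF5A2, and was not tested. VHL, the ligase subunit that binds hydroxylated HIF alpha, was at 18.9, 61.2 and 24.4 CPM in NC and at 77.8, 29.9 and 32.5 CPM in si-EIF5A2. A single library stood high in each group, the interval of VHL ran from -1.19 to 2.04, and a difference was not detectable with this spread.

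HIF binds the core ACGTG, or less often GCGTG, in the promoters it activates. RefSeq promoters, here the 250 bases before and 50 bases after a gene's start in GRCh38.p14, were on hand for 37 of the 43 members, and 15 of these (40.5%) held ACGTG on either strand. The same letters stood in 21.6% of all 27305 promoters in the table and in 26.8% of the 10629 promoters of genes tested. GCGTG stood in 48.6% of the member promoters and in 50.6% of those of genes tested. ACGTG occurred in 1 of 3 members called lower, in 1 of 4 called higher and in 12 of 28 not called that had an entry. A match is a run of letters and not a binding site. The table holds 1 start a gene, and the bases after it were found in an annotated transcript of the gene for 33 of the 37 members, the 4 printed here included. The P4HA2 start used lies inside the annotated gene, so its other starts were not searched. The promoters below are shown because they span the members' range, from LDHA with 5 matches to ACGTG and no call, to LOX with 4 and a lower level, and to P4HA1 with 1 and P4HA2 with none, which both rose. Capitals mark each ACGTG or GCGTG, which read CACGT or CACGC when the match is on the opposite strand, and a palindromic CACGTG counts as a match on both. All are written 5′ to 3′ in the direction of the gene.
LDHA (chr11:18394313-18394612, plus strand): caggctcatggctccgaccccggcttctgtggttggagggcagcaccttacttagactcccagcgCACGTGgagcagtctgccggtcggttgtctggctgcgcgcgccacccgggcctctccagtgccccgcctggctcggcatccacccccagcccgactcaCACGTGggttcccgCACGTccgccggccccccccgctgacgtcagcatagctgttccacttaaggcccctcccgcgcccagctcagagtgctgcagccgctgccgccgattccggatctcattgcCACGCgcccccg
LOX (chr5:122078210-122078509, minus strand): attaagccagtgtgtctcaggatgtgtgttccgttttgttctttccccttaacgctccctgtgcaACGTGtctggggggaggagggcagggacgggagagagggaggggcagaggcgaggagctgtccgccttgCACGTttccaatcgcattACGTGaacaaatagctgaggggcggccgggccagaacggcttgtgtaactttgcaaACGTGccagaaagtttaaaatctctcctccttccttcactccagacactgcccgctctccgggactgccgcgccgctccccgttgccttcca
P4HA1 (chr10:73096817-73097116, minus strand): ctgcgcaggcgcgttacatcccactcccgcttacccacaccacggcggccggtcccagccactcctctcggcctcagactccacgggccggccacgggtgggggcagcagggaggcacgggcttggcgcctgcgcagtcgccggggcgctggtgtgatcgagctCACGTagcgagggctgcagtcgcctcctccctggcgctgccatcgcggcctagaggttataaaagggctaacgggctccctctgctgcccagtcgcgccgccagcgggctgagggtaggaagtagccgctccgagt
P4HA2 (chr5:132227042-132227341, minus strand): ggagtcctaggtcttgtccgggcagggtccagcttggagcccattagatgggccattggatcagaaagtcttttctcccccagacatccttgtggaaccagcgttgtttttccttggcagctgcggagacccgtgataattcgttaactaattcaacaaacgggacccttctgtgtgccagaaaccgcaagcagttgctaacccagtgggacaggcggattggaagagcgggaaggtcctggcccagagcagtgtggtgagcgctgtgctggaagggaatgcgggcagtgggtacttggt

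Of the 11 other HIF-induced members tested, P4HA1, P4HA2 and LOX were called. P4HA1 and P4HA2 encode the catalytic subunits of the enzyme that hydroxylates collagen prolines. P4HA1 (chromosome 10, 73007217 to 73096974, minus strand) was at 36.6, 44.7 and 46.5 CPM in NC and at 88.1, 70.0 and 72.8 CPM in si-EIF5A2. It rose 1.81-fold, by 0.85 on the log2 scale (SE 0.13, edgeR adjusted p = 0.00133), without overlap. P4HA2 (chromosome 5, 132191838 to 132295315, minus strand) was at 11.1, 11.7 and 10.7 CPM in NC and at 39.8, 36.6 and 39.7 CPM in si-EIF5A2. Its rise of 3.46-fold, 1.79 on the log2 scale (SE 0.09, edgeR adjusted p = 9.86e-06), was the largest of any member. Per kilobase, P4HA1 remained the larger subunit, with 91.2 ± 1.11% of the pair in NC and 84.4 ± 1.27% in si-EIF5A2. Both calls held in all 16 other fits. P4HA1 overlaps AL731563.2, and P4HA2 overlaps P4HA2-AS1, on the opposite strand.

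LOX, lysyl oxidase, which cross-links collagen and elastin outside the cell, went the other way. It was at 60.9, 59.0 and 64.2 CPM in NC and at 37.0, 32.7 and 39.5 CPM in si-EIF5A2. The groups were apart, and LOX fell to 59.3% of NC, a log2 fold change of -0.75 (SE 0.10, edgeR adjusted p = 5.87e-04) that was called in all 16 other fits. Its exons overlap those of SRFBP1 on the opposite strand.

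The genes for vessel growth and pH control differed by less than the fold limit. VEGFA, the main vessel growth factor, was at 87.3, 98.3 and 87.9 CPM in NC and at 79.7, 69.4 and 74.3 CPM in si-EIF5A2, below NC throughout at -0.29 (SE 0.09, edgeR adjusted p = 0.0323). ADM, the vasodilator peptide adrenomedullin, was at 15.9, 15.2 and 14.4 CPM in NC and at 19.9, 23.8 and 21.0 CPM in si-EIF5A2, above NC throughout at 0.51 (SE 0.11, edgeR adjusted p = 0.00886). CA9, the carbonic anhydrase often used as a marker of hypoxia, was at 0 in all 6 libraries, which allows up to 0.151 to 0.234 CPM. CA12, a related enzyme, was at 6.10, 6.38 and 6.66 CPM in NC and at 5.10, 4.44 and 5.42 CPM in si-EIF5A2, apart but with an edgeR adjusted p of 0.104.

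BNIP3 and BNIP3L, which direct the removal of mitochondria, were not called. BNIP3 was at 102, 94.4 and 98.5 CPM in NC and at 132, 130 and 128 CPM in si-EIF5A2, at 0.41 (SE 0.07, edgeR adjusted p = 0.00230) and under the fold limit. BNIP3L was at 72.9, 75.2 and 76.0 CPM in NC and at 69.6, 51.7 and 67.4 CPM in si-EIF5A2, at -0.25 (95% interval -0.52 to 0.03).

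NDRG1, a stress-responsive gene that hypoxia induces in many cells, was at 176, 175 and 173 CPM in NC and at 118, 115 and 118 CPM in si-EIF5A2. The libraries of each group lay close together, and its log2 fold change of -0.58 (SE 0.06, edgeR adjusted p = 2.73e-04) fell at the fold limit, so that it was called lower in 7 of the 16 other fits. KDM3A, a histone demethylase induced by HIF, was at 16.9, 19.0 and 25.5 CPM in NC and at 31.8, 27.9 and 27.4 CPM in si-EIF5A2, at 0.50 (SE 0.16, edgeR adjusted p = 0.0392), and it was called higher only without NC replicate 3 (0.68). ANKRD37, a small HIF target, was at 1.97, 1.44 and 2.15 CPM in NC and at 2.76, 2.84 and 2.56 CPM in si-EIF5A2, at 0.55 with an edgeR adjusted p of 0.107.

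Of the 33 members not called, 18 had a 95% interval that lay within 1.5-fold either way, among them GAPDH, LDHA, LDHB, HK2, PFKP, PFKM, HIF1A, VEGFA and EGLN1. The other 15 had wider intervals, so a change of that size was neither shown nor bounded. An adjusted p under 0.05 was reached by 19 members in all, 11 of them under the fold limit. The share of all genes tested that reached this p was not counted, so whether 19 is unusual cannot be said. Within the si-EIF5A2 group, replicate 2 was the library farthest from the group median in 20 of 41 members, against 13 for replicate 1 and 8 for replicate 3.

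The neighbouring pathways were read from lists that hold no member. These lists were chosen with earlier results of these data known, so their counts are descriptions without a test. Of 48 tested regulators and targets of HIF outside the 43, 14 rose (29.2%, beside 11.1% of all genes) and 3 fell (6.25%, beside 13.6%), with a median log2 fold change of 0.13. STC1, a secreted glycoprotein hormone, rose from 42.5 ± 3.33 to 290 ± 16.9 CPM, a log2 fold change of 2.77 (SE 0.09, edgeR adjusted p = 4.44e-06). CXCR4, a chemokine receptor, rose from 3.54 ± 0.141 to 20.4 ± 0.897 CPM (2.53, edgeR adjusted p = 6.81e-06). PLOD2, which hydroxylates collagen lysines, rose from 272 ± 12.2 to 712 ± 38.7 CPM (1.38, edgeR adjusted p = 1.06e-05). ERO1A, an oxidase of disulphide formation, and JMJD6, a Jumonji-family hydroxylase, rose by 1.10 and 1.08. The 3 that fell, named after their values were seen, were DDIT4, an inhibitor of mTOR signalling (430 ± 3.34 to 256 ± 15.4 CPM), the glycogen branching enzyme GBE1 (72.1 ± 4.95 to 44.3 ± 2.13 CPM) and STC2 (203 ± 1.54 to 131 ± 2.18 CPM), the paralog of STC1.

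**Figure D4:**
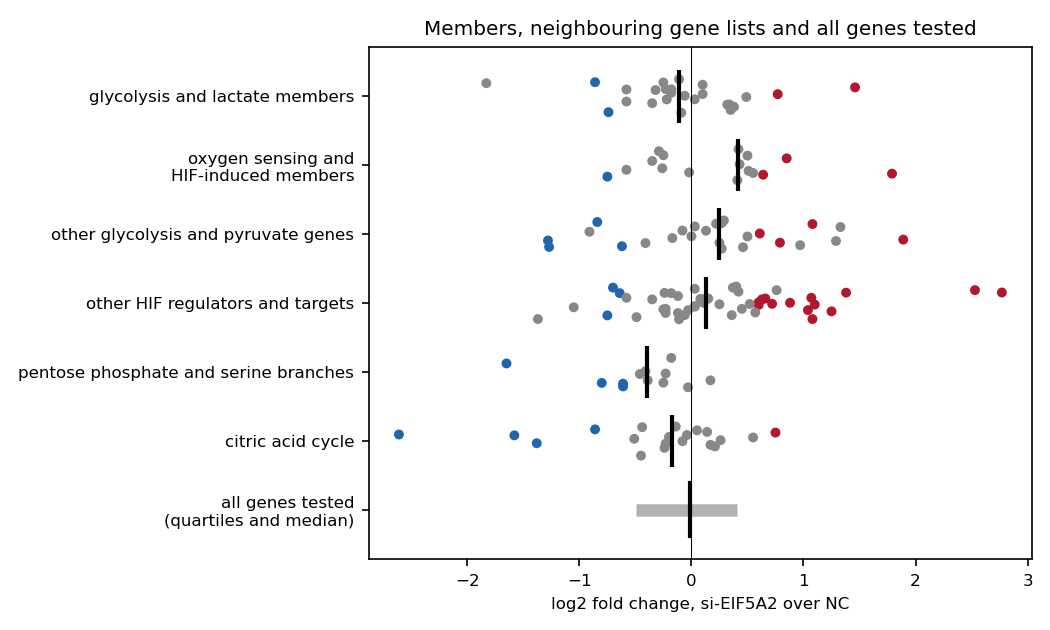
Log2 fold change in si-EIF5A2 over NC of each tested gene in the member groups and in 4 neighbouring lists, with the quartiles and median of all 16208 genes tested. Each dot is 1 gene (blue called lower, red called higher, grey not called, shifted vertically only to separate them), and black bars are medians. The median is 0.41 for the oxygen-sensing and HIF-induced members (quartiles -0.27 and 0.52, 7 estimates negative and 9 positive). It is -0.40 for the pentose phosphate and serine branches (quartiles -0.61 and -0.22).

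Among 25 other tested genes of glycolysis and pyruvate handling, 4 rose (16.0%, beside 11.1% of all genes). A further 4 fell (16.0%, beside 13.6% of all genes), and the median was 0.25. SLC2A6, a further sugar carrier, rose by 1.89 but unevenly, with 10.5, 34.5 and 35.8 CPM in si-EIF5A2 against a mean of 7.28 ± 2.43 CPM in NC (edgeR adjusted p = 0.0434). MPC2, a subunit of the mitochondrial pyruvate carrier, rose by 0.79, and TIGAR, a fructose bisphosphatase, by 0.61. PDPR, a regulator of the phosphatase that activates pyruvate dehydrogenase, fell from 43.4 ± 16.2 to 18.0 ± 3.05 CPM, and PDK2, a pyruvate dehydrogenase kinase, from 24.0 ± 3.80 to 13.4 ± 2.10 CPM. SLC2A8 and ENO3 fell and PGM2L1 rose at levels under 10 CPM, and are named after their values were seen. The 8 calls became 5 without NC replicate 1, NC replicate 3 or si-EIF5A2 replicate 1.

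Serine synthesis and the pentose phosphate route leave glycolysis along its course. In the pentose phosphate and serine branches, 4 of 12 tested genes fell (33.3%, beside 13.6% of all genes) and 8 were not called, with a median of -0.40. SHMT2, which makes glycine and folate-bound carbon units from serine in mitochondria, fell from 937 ± 46.7 to 298 ± 33.8 CPM, a log2 fold change of -1.65 (SE 0.10, edgeR adjusted p = 1.46e-05). SHMT1, its cytosolic counterpart, fell by 0.80, PHGDH, which draws serine synthesis off phosphoglycerate, by 0.61, and RPIA, a pentose phosphate isomerase, by 0.61. Without si-EIF5A2 replicate 1, 2 genes of this list were called, and 2 with the GC and length trend removed.

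In the citric acid cycle list, which also holds cytosolic forms, 4 of 20 genes fell (20.0%, beside 13.6% of all genes). The median was -0.17 (quartiles -0.47 and 0.15), and the estimates went both ways, 13 negative and 7 positive. IDH2, the mitochondrial NADP-dependent isocitrate dehydrogenase, was at 20.4, 22.9 and 20.7 CPM in NC and at 3.21, 3.83 and 3.40 CPM in si-EIF5A2, a log2 fold change of -2.61 (SE 0.13, edgeR adjusted p = 8.40e-06). IDH1, the cytosolic form, fell by 1.38, and ACO1, the cytosolic aconitase, by 1.58. SUCLG2, a subunit of succinyl-CoA ligase, fell by 0.86. None of these genes is a member, and whether they differ from the members as lists was not tested.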

How the data were processed

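RNA of SKOV3 cells was sequenced as paired-end 150-base mRNA libraries. With StringTie and ballgown the authors derived expression levels, and they deposited an estimated count per gene as whole numbers, not normalised; replicates were not pooled. Low values are multiples of about 3.67 counts per sequenced fragment. The submitters' processing notes name Bowtie 0.12.2 and the mouse builds mm8 and mm9, whereas 58552 of the 58825 identifiers are human genes of GENCODE release 29 (GRCh38), which gave symbols, coordinates and exon lengths here. The aligner and annotation actually used for these libraries are not given in the sources used here.

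Groups came from the sample titles. The 16208 genes passing edgeR's filter (edgeR 4.0.16, R 4.3.3) were scaled by TMM and fitted over the 6 libraries with the quasi-likelihood test, and p-values were adjusted by Benjamini-Hochberg over all of them. A call needs both an adjusted p below 0.05 and a fold above 1.5. The common biological coefficient of variation was 0.261. Rounding changed no value, since the deposited estimated counts were whole. The fit was tested on simulated data. CPM is a count scaled to a fixed library total, and levels of different genes were compared per kilobase of exons. Intervals cover 95%.

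The members and the lists were chosen with earlier results of these data known. The text names all 43 members, EIF5A2 and, of each neighbouring list, called genes averaging 10 CPM or more, at most the 5 with the largest fold change; exceptions are marked, and 1 gene is not reported here. Alternatives were DESeq2 1.42.0, other scalings and filters, a replicate block, thinning to the lowest total, division of counts by their step, a GC and length correction, other thresholds, and leaving out each library.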

Additional observations from a re-analysis of the deposited data

How the results depend on the processing

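Of 670 single-gene values recomputed, 627 kept their direction and side of the threshold, 11 lost the call, 23 gained it and 9 in 6 genes changed sign. Lower members numbered 6, against 3, with upper-quartile scaling, with at least 10 counts in every library and with counts divided by their step, where ENO2, PDK3 and NDRG1 were also called; 1 with the GC and length trend removed; and 7 with no fold limit, where higher members were 12 against 5. The rule used here has the limits given in the legend of the study's heat map, and under it DESeq2 called 3 lower and 5 higher members. With edgeR, 13 were lower and 13 higher at an unadjusted p under 0.05 alone. The shares of all genes tested at that p, or with no fold limit, were not counted. These counts of members therefore stand without a background and are not read as a result about them. The study's methods give another threshold (p under 0.05 without adjustment, and a fold over 2 or under 0.5). At the threshold of the methods, edgeR gave 0 lower and 2 higher members, again without a count over all genes. That threshold gave 5 other glycolysis genes, 8 HIF genes, 1 pentose or serine gene and 3 citric acid cycle genes, the last being 10 with no fold limit. Without a filter on low counts, 5 other glycolysis genes were called. The GC and length correction left 2 pentose or serine genes, moved the median of all genes from -0.01 to 0.087, and gave a members' median of 0.05, PFKM 0.11, TPI1 0.05 and GAPDH 0.03; the cause was not tested.

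Leaving out each library in turn gave 2 to 4 lower and 5 to 6 higher members, a median of -0.15 to -0.03, 5 to 6 other glycolysis genes, 14 to 17 HIF genes, 2 to 5 pentose or serine genes and 5 to 6 citric acid cycle genes. Values changed sign for HK2 (-0.01 to 0.09, and -0.0044 without a filter), VHL (-0.17 to 1.11) and EGLN1 (-0.09 to 0.03, with 0.02 without si-EIF5A2 replicate 2).

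Replicate numbers did not pair the libraries, since deviations of same-numbered libraries correlated at -0.0244, 0.00522 and -0.00269. With a replicate block, 3 members were lower and 5 higher, 3731 genes were called in place of 3992, and SLC2A1 lost its call at -0.92 while ENO2 gained it at -0.60. With all libraries thinned to the lowest total, 46900204 estimated counts, 3 members were lower and 5 higher and 3966 genes were called, with PDK3 called in place of SLC2A1. Family shares depend on the gene length used. The si-EIF5A2 difference in the P4HA1 share was -6.77 points with exon length, -11.7 with the longest transcript and -12.7 with no length, that of PFKL 2.38 points with exon length and 3.82 with none, that of HIF1A -9.79 and -11.0, and that of EGLN1 0.576 with exon length and 1.42 with the longest transcript.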

Other observations

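Collagen-modifying genes beyond P4HA1, P4HA2 and LOX were looked up after the values of those 3 had been seen, as a list of 17 genes. All 17 passed the filter, 4 rose (11.1% of all genes did), 3 fell (13.6% of all genes did) and 10 were not called, with a median log2 fold change of 0.06. PLOD1 and PLOD2, lysyl hydroxylases, rose from 328 ± 17.4 to 498 ± 24.3 CPM and from 272 ± 12.2 to 712 ± 38.7 CPM (SD, n = 3). P3H1 and P3H2, which hydroxylate proline at another carbon than P4HA1 does, rose from 90.8 ± 5.53 to 159 ± 6.21 CPM and from 15.1 ± 1.48 to 41.6 ± 2.29 CPM. LOXL1, a relative of LOX, fell from 80.3 ± 16.7 to 14.7 ± 1.19 CPM, a log2 fold change of -2.45 (SE 0.16, edgeR adjusted p = 2.60e-05), and the collagen galactosyltransferases COLGALT1 and COLGALT2 fell by 0.83 and 1.18. P4HB, the partner chain of P4HA1 and P4HA2, was at 540 ± 25.4 and 484 ± 39.6 CPM (log2 fold change -0.16, edgeR adjusted p = 0.179). CRTAP, which works in a complex with P3H1, went from 449 ± 11.7 to 309 ± 24.4 CPM (-0.54, edgeR adjusted p = 0.00109), under the fold limit, and SERPINH1, a collagen chaperone, at 261 ± 18.9 and 219 ± 20.3 CPM (-0.25, edgeR adjusted p = 0.0630). PLOD3, P3H3, P3H4, P4HA3 and LOXL2 to LOXL4 were not called either. The list was chosen with values in view, so its counts carry no test.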
